A study of Homo sapiens with 3 samples.

Results

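The loci of 6 human genes of the vitamin D system were examined for binding of the vitamin D receptor in THP-1 cells. They were the 4 cytochrome P450 genes CYP2R1, CYP27A1, CYP27B1 and CYP24A1 and the receptor genes VDR and RXRA. A peak was counted at a gene when it overlapped the window of 100 kb to each side of the gene's start on hg19. The 6 windows held 1 of the 1169 peaks of unstimulated cells and 2 of the 1820 peaks of calcitriol-treated cells. Merging overlapping peaks of both states made these 2 of 2121 bound regions, 1 at RXRA and 1 at CYP27B1. The gene starts were given to the nearest 1 kb, at 14.914 Mb on chromosome 11 for CYP2R1, 219.646 Mb on chromosome 2 for CYP27A1, 58.161 Mb on chromosome 12 for CYP27B1, 52.791 Mb on chromosome 20 for CYP24A1, 48.299 Mb on chromosome 12 for VDR and 137.218 Mb on chromosome 9 for RXRA.

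THP-1 is an established human monocytic leukaemia cell line. After a night in phenol red-free medium with charcoal-stripped serum, the cells were left unstimulated or were exposed for 40 min to 10 nM 1α,25(OH)2D3, the hormone calcitriol, and binding was mapped by chromatin immunoprecipitation and sequencing (ChIP-seq) with an antibody against the receptor. Each condition had 1 library, pooled from separate immunoprecipitations, so no test between conditions was possible and all values below describe these libraries. An IgG sample from pooled material was not analysed here. The deposited lists give peak positions with no height or read count, so depth is unknown and the lack of a peak means only that none passed the authors' threshold.

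Vitamin D is activated in 2 hydroxylation steps. CYP2R1 and CYP27A1 are enzymes that can carry out the first step, at carbon 25, and CYP27B1 carries out the second, which makes calcitriol. CYP24A1 starts the breakdown of calcitriol, and its gene is a textbook target of the hormone in many cell types. VDR is the receptor for calcitriol, and RXRA encodes a retinoid X receptor with which it pairs on DNA, typically at a direct repeat of a hexamer with a spacer of 3 bases (DR3).

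None of the 6 gene starts on hg19, given to the nearest 1 kb, lay inside a peak in either list. Of points every 10 kb along the genome, 0.115% had an unstimulated peak within 1 kb and 0.200% a calcitriol peak. None of 6 is thus near the background. Sequence at the start was at hand for 3 of the 6 genes, RXRA, CYP27A1 and CYP2R1, from a RefSeq table of promoters on GRCh38.p14. The 250 bases before the start are shown so that the DNA at these starts can be read, each 5′ to 3′ on the strand of the gene. Their GRCh38.p14 positions were not compared with the hg19 peaks. They are at chr9:134326205-134326454 (plus strand) for the first of 2 listed starts of RXRA, at chr2:218781897-218782146 (plus strand) for CYP27A1 and at chr11:14892444-14892693 (minus strand) for the most upstream of 3 listed starts of CYP2R1. Capitals mark exact copies of the half-sites known for the receptor, on either strand: the hexamer AGGTCA, the hexamer AGTTCA, the hexamer GGGTCA and the hexamer GGTTCA.
RXRA, first start: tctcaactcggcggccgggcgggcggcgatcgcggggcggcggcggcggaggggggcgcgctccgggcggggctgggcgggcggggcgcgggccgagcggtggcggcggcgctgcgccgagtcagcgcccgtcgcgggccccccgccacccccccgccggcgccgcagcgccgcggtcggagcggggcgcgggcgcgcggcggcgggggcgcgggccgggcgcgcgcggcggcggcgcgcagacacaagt
CYP27A1: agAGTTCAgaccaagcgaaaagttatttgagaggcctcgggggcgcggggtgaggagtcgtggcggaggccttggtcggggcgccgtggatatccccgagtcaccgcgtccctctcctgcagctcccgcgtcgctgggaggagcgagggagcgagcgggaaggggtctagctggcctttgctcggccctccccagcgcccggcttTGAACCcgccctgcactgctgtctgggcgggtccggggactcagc
CYP2R1: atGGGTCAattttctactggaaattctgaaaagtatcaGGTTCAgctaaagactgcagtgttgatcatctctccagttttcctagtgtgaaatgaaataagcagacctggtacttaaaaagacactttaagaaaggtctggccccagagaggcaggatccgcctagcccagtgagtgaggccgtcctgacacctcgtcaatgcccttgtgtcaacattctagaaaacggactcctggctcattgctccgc

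The first RXRA start held no hexamer in a stretch with 89.2% G and C, more than in 99.97% of all promoters of the table. CYP27A1 and the CYP2R1 start shown held 2 hexamers each. These counts depend on the start chosen. The second listed start of RXRA, with 64.4% G and C, held 1 hexamer, and the CYP2R1 starts not shown held 1 and 0. At least 1 hexamer was found in the same 250 bases of 33.8% of the 35116 promoters in the table, so single hexamers were common. The best DR3 match was then sought on both strands of the whole table windows of 300 bases, which reach 50 bases past the start. A DR3 consists of 2 of these hexamers, so the searches overlap. It had 9 of 12 fixed bases right at CYP27A1, which 74.0% of all promoters equalled or bettered. It had 8 of 12 at the first RXRA start and at the CYP2R1 start shown, which 99.8% equalled or bettered. At the second RXRA start and the CYP2R1 start with 1 hexamer it had 9 of 12. At the CYP2R1 start with 0 hexamers it had 8 of 12. A perfect DR3 was in 0.0740% of all promoters and in none of the 6 windows listed for these 3 genes. Such matches describe the letters and do not show binding.

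Peaks were listed at the locus of 1 of 6 genes in unstimulated cells and of 2 of 6 after calcitriol. For the background, the genome was divided into tiles of 200 kb, the size of a window. A peak was present in 4.70% of the 15079 tiles in the unstimulated list (exact Clopper-Pearson 95% interval 4.37 to 5.05%), in 8.01% in the calcitriol list (7.58 to 8.46%) and in 9.27% in either list. The intervals cover counting error only. These tiles include stretches without genes, and a background of other gene starts on hg19 was not used here. By role, neither of the 2 genes for 25-hydroxylation had a peak, the activating enzyme gene CYP27B1 had 1 after calcitriol, the degrading enzyme gene CYP24A1 had none, VDR had none, and RXRA had 1 in each state. Among all tiles, 3.44% held peaks of both lists, as RXRA did, and 4.57% held a calcitriol peak without an unstimulated one, as CYP27B1 did. The share of points on a 10 kb grid with a peak within 100 kb ranged over the chromosomes of these genes from 2.87% (chromosome 2) to 6.11% (chromosome 11) in unstimulated cells and from 6.94% (chromosome 2) to 9.70% (chromosome 20) with calcitriol. Of the 2 regions, 1 was found in both states and 1 with calcitriol alone. Over all 2121 regions these classes made up 27.4% and 52.0%, and the class found in unstimulated cells alone, with no region in these windows, made up 20.6%.

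**Figure D1:**
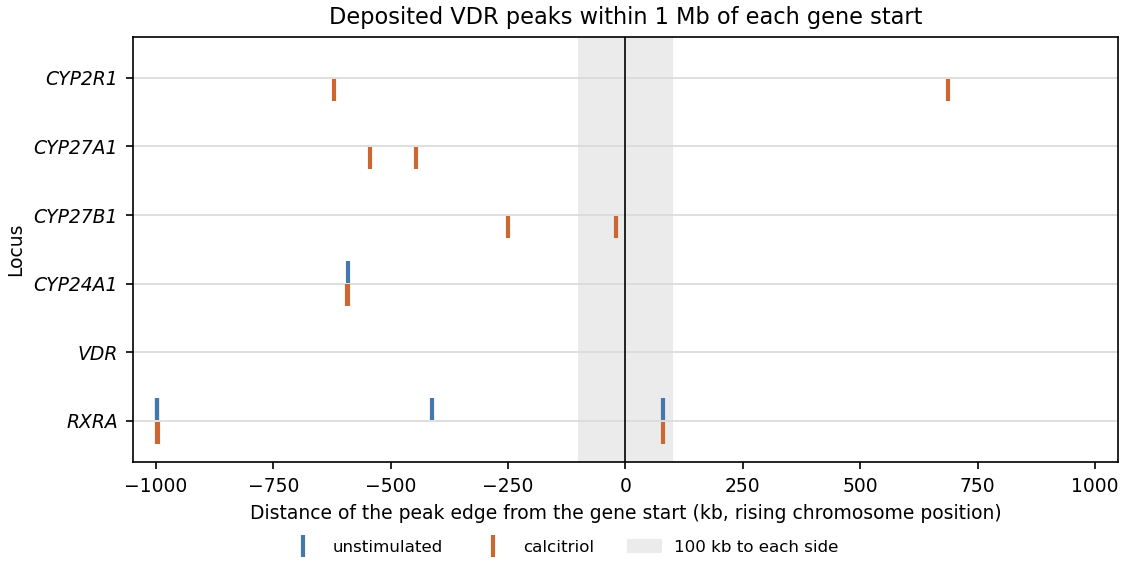
Each tick is a deposited VDR peak, placed by the distance of its nearer edge from the gene start (kb, negative towards lower chromosome positions), for unstimulated (blue, upper) and calcitriol-treated (orange, lower) cells. The grey band is the window of 100 kb to each side, which holds ticks at CYP27B1 and RXRA alone, and the VDR row is empty. Peaks a few kb apart, as near RXRA at the left edge, merge into 1 tick.

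RXRA was the locus with a peak in both states. In unstimulated cells the peak spanned 137297901 to 137299981 on chromosome 9, a width of 2080 bp, and its nearer edge lay 79.9 kb from the start. After calcitriol the peak spanned 137298521 to 137299871, a width of 1350 bp, with its edge at 80.5 kb. Both lay on the side towards which RXRA is transcribed, close to the outer limit of the window. Gene positions on hg19 were not used, so whether the site falls within RXRA was not determined. In gene order RXRA stands between WDR5 and COL5A1.

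The calcitriol peak at RXRA lay wholly inside the unstimulated one. Its start was 620 bp further in and its end 110 bp further in, and the centres were 255 bp apart. The overlap of 1350 bp covered 64.9% of the unstimulated peak. The listed width was thus 730 bp smaller with calcitriol. Among the 447 pairs of the series in which 1 unstimulated peak met exactly 1 calcitriol peak, the calcitriol peak was the narrower in 169, and in 32 by at least 730 bp, counting RXRA. The median width difference over these pairs went the other way, with the calcitriol peak wider by 169 bp. The median distance between centres was 235 bp. In its own list the unstimulated RXRA peak was wider than 1066 of 1169 peaks (91.2%), and the calcitriol peak was wider than 785 of 1820 (43.1%). Width is not height, and binding strength cannot be read from it. The peak next to the RXRA site was 493 kb away in unstimulated cells and 1076 kb away with calcitriol. How these gaps compare with those of the other peaks was not examined.

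CYP27B1 was the locus with a peak after calcitriol alone. The peak spanned 58139191 to 58140181 on chromosome 12, a width of 990 bp, and its nearer edge was 20.8 kb from the start, the shortest distance among the 6 genes in either list. It lay at lower positions, the side towards which CYP27B1 is transcribed. Next on that side in the gene order of the RefSeq table are the protein-coding genes MARCHF9, CDK4 (a cyclin-dependent kinase) and TSPAN31 (a tetraspanin). The peak was not assigned to any of these genes. It was narrower than most peaks of its list, with 318 of 1820 (17.5%) narrower still. The closest other calcitriol peak was 229.0 kb away. In the unstimulated list the nearest peak to CYP27B1 was 1432 kb from the start.

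**Figure D2:**
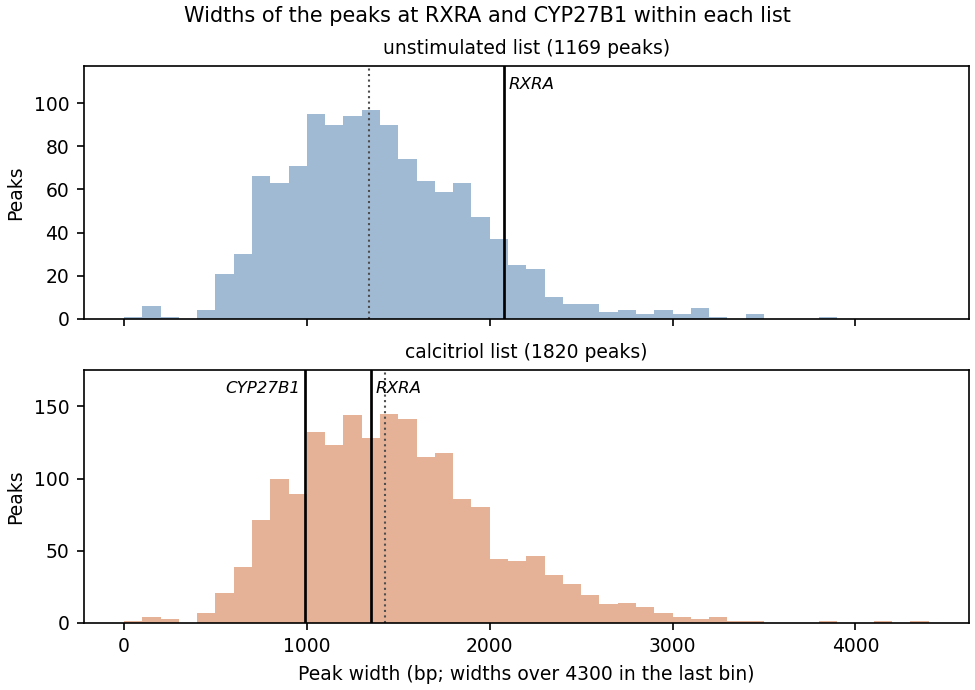
Histograms of peak width (bp, bins of 100 bp) in each list, with the number of peaks on the vertical axis, the list median as a dotted line (1340 and 1430 bp) and the peaks at RXRA and CYP27B1 as black lines. RXRA stands right of the median in unstimulated cells (2080 bp) and left of it with calcitriol (1350 bp), and CYP27B1 is at 990 bp.

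The degrading enzyme gene CYP24A1 had no peak within 100 kb in either state. The nearest site was at 591 kb towards lower positions in both lists, the side of BCAS1 and ZNF217 in gene order. There the unstimulated list had a peak of 2749 bp from 52197211 to 52199960, and the calcitriol list had a pair of peaks 10 bp apart, of 440 bp and 2389 bp, over nearly the same stretch. On the other side of CYP24A1 the first peak was at 5.53 Mb in unstimulated cells and at 2.21 Mb with calcitriol.

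The VDR gene was the only one of the 6 with no peak of either list within 1 Mb of its start. The nearest calcitriol peak was at 1225 kb towards higher positions and was found in that state alone. The nearest unstimulated peak was at 1522 kb towards lower positions. It is among the 170 peaks of the unstimulated list whose rows come after the first break in position order of their chromosome. Without those rows, called out of order below, the nearest was at 6377 kb.

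The genes for 25-hydroxylation had distant peaks. For CYP27A1 the nearest calcitriol peaks were at 447 kb and 545 kb towards lower positions, with widths of 1859 bp and 820 bp, and neither overlapped an unstimulated peak. In unstimulated cells the nearest peak to CYP27A1 was 11.6 Mb away. For CYP2R1 the nearest calcitriol peaks stood on either side, at 621 kb towards lower and 688 kb towards higher positions, with widths of 850 bp and 1000 bp, both in that state alone. The nearest unstimulated peak to CYP2R1 was at 1223 kb.

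Across the 6 genes the order of nearest calcitriol peaks was CYP27B1, RXRA, CYP27A1, CYP24A1, CYP2R1 and VDR. In unstimulated cells it was RXRA, CYP24A1, CYP2R1, CYP27B1, VDR and CYP27A1. No replicate gives the error of these distances, and CYP24A1 and CYP2R1, at 591 and 621 kb in the calcitriol list, are close neighbours in that order. A peak lay within 1 Mb of 2 of 6 genes in unstimulated cells and of 5 of 6 with calcitriol, against 27.1% and 43.7% of points on the 10 kb genome grid. Like the tiles, this grid includes stretches without genes, so it is not a background of gene starts. Whether genes in general lie as near to peaks was not tested. The nearest peak was closer with calcitriol at 4 genes and equal within 1 kb at the other two, RXRA and CYP24A1. Over the grid, the calcitriol peak was the closer one at 65.4% of points, the unstimulated peak at 14.5%, and 20.1% were equal within 1 kb, so 4 of 6 is near the background. The median distance over the 6 genes was 1328 kb in unstimulated cells and 519 kb with calcitriol, and over grid points every 10 kb of the genome it was 2603 kb and 1257 kb. The share of grid points as near to a peak as the gene placed each distance in its own list. For CYP27B1 it was 34.5% in unstimulated cells and 1.98% with calcitriol, and for RXRA 3.83% and 6.56%. It was 90.3% and 25.8% for CYP27A1, whose unstimulated distance was the longest of all. It was 18.9% and 31.2% for CYP24A1, 31.0% and 32.2% for CYP2R1, and 35.9% and 49.3% for VDR.

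**Figure D3:**
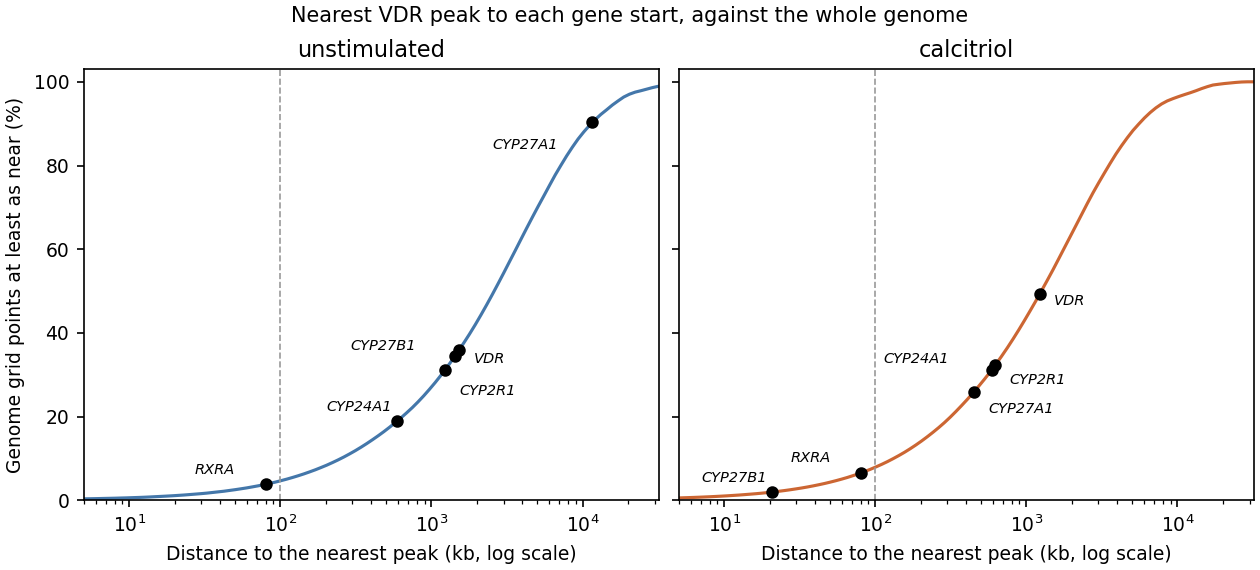
Curves give the share of genome grid points (vertical axis, percent) with a peak at least as near as the distance on the horizontal axis (kb, log scale), and black points place the 6 genes on the curve of each list by their own nearest peak. The dashed line marks 100 kb, with RXRA left of it in unstimulated cells and CYP27B1 and RXRA left of it with calcitriol.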

How the data were processed

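VDR ChIP-seq peak lists of 2 THP-1 samples were used. The submitters' processing notes name Bowtie and the build hg19. How peaks were called, with which threshold and control, is not given in the sources used here, and a threshold set by depth could change which loci have a peak. The values the authors deposited are the chromosome, start and end of each peak, with no score, and are printed as deposited. Width is end minus start, and the distance runs from the gene start to the nearer peak edge. Peaks of the 2 lists that shared at least 1 bp were merged into regions.

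The genes were chosen with earlier results of these data known, and all peaks in their windows are described. Tiles and grid points run to the last peak of either list on each chromosome. Gene order, used for up to 3 protein-coding neighbours on each side, and promoters came from RefSeq tables of GRCh38.p14. None of their positions were joined to hg19 peaks. Other genes of the pathway were not analysed here. Functions were tested on simulated lists. The alternatives tried were other windows, definitions of sharing, joined peaks and subsets of peaks. Software was Python 3.11.15 with pandas 2.3.3, numpy 2.4.6, scipy 1.17.1 and matplotlib 3.10.9.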

Additional observations from a re-analysis of the deposited data

How the results depend on the processing

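Neither leaving out replicates nor pairing samples was possible, as the conditions had a single library each. Stricter thresholds were not run because the lists hold no score. Counts this small move with single peaks. With windows of 50 kb to each side, 0 loci had a peak in unstimulated cells and 1 (CYP27B1) with calcitriol, the windows held 0 and 1 peaks, and 0 regions were of both states. Of points on the 10 kb genome grid, 2.55% had an unstimulated peak within 50.3 kb and 4.35% a calcitriol peak. With the wider 50% of each list, 0 loci and 0 peaks were left with calcitriol, and the RXRA site was 1 region of unstimulated cells alone, with 0 regions of both states and 0 of calcitriol alone. The share of tiles with a peak was then 2.86% in unstimulated and 4.64% in calcitriol-treated cells. With sharing defined as centres within 100 bp, the RXRA peaks counted apart, giving 1 region of unstimulated cells alone, 0 of both states and 2 of calcitriol alone. The counts of loci, peaks and regions were unchanged with windows of 200 kb and with peak centres in the window. They were also unchanged without the out-of-order rows and with neighbouring peaks joined. Reciprocal overlap of 50% bears on regions alone, and it left the region counts unchanged. Shifting the tiles by 100 kb kept their shares inside the intervals given. Of 42 alternative values for nearest distances, 41 stayed within 1.5 times. The exception was VDR in unstimulated cells, at 6377 kb without out-of-order rows, an alternative chosen after seeing the data.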
